A study of Mus musculus with 6 samples.

Results

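Circadian clock and clock output genes were examined in mouse thyroid by reading 10 listed genes, Arntl (also called Bmal1), Npas2, Nr1d1, Nr1d2, Ciart, Per1, Per2, Per3, Dbp and Tef. They were picked by name from the 22206 probe sets of a whole-transcript array, of which 19572 carry a gene symbol, and each of the 10 genes is read by 1 probe set. Both groups were C57BL/6J-background mice that carry Cre and received tamoxifen, so the Cre transgene and the drug are shared. The 3 mice called knockouts here are Foxe1flox/flox/Cre, in which the forkhead factor gene Foxe1 is floxed, and the 3 controls are labelled Cre control and have no floxed Foxe1 in their label. Tamoxifen was injected at 0.05 g/kg on 5 days at an age of 6 to 8 weeks, and 1 thyroid lobe per animal was taken 2 weeks after treatment. The sources used here do not name the Cre driver, the sex of the animals or the time of day of tissue collection. The mice were kept in a 12-h light and 12-h dark cycle with lights on at hour 7 and off at hour 19.

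The clock of a mammalian cell is a feedback loop of transcription. A dimer of ARNTL with CLOCK, or with its relative NPAS2, binds E-box sequences and switches on the Per genes, Ciart, Nr1d1, Nr1d2, Dbp and Tef. PER proteins and CIART hold that dimer back, while the nuclear receptors NR1D1 and NR1D2 (also called REV-ERB alpha and beta) repress Arntl and Npas2 through ROR response elements. In most tissues Arntl and Npas2 therefore peak when Nr1d1 and Dbp are low, and such genes are called antiphase pairs. DBP and TEF are leucine zipper factors that carry the rhythm to output genes through D-boxes, and those sites also lie in Per genes.

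Motifs of the kinds named above can be read near the start sites of several of the genes, and a few stretches that carry them are shown. RefSeq windows (build GRCm38.p6) of 300 bases, from 250 before to 50 after an annotated start site, were at hand for 9 of the 10 genes, all but Per2. Capitals mark motif matches, each sequence reads 5′ to 3′ on the gene's strand, and all lie upstream of the start site but the last. Ciart is shown for 3 copies of the E-box CACGTG (chr3:95882229-95882358, minus strand), Per1 for an E-box and the D-box TTATGCAA (chr11:69098769-69098948, plus strand), Per3 for a pair of D-boxes TTATGTAA (chr4:151044786-151044885, minus strand) and Nr1d1 for the E-box variant CACGTT, found on the opposite strand (chr11:98775378-98775447, minus strand). Arntl is shown for its ROR response element, which starts 27 bases into the transcript (chr7:113207528-113207557, plus strand).
Ciart: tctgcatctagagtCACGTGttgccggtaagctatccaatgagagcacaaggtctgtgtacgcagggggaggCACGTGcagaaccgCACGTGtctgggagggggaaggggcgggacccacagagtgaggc
Per1: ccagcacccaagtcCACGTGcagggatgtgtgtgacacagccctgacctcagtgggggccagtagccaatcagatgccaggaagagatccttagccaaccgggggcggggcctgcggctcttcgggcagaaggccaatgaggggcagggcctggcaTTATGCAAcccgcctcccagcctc
Per3: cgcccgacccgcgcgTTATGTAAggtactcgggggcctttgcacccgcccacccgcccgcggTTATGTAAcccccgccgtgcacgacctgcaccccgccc
Nr1d1: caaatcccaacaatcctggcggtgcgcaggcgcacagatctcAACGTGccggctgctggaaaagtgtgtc
Arntl: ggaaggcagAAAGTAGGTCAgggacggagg

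These motifs were searched on both strands, and none of the matches shown overlaps another. CACGTG was found in windows of 3 of the genes (Ciart, Per1 and Tef) and in 7.15% of all 32851 windows. CACGTT was found in Nr1d1 and in 4.68% of windows. TTATGCAA was found in Per1 and in 0.743% of windows, and TTATGTAA in Per3 and in 0.938%. The ROR response element was found in Arntl and in 0.384% of windows. A match describes the letters of a window and is not a measured binding site.

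None of the 10 clock genes differed between knockout and control thyroid at an adjusted p of 0.05 (limma, Benjamini-Hochberg adjustment over all probe sets, n = 3 per group), against 0.338% of all 22206 probe sets (0.252% higher and 0.0856% lower in the knockout). The activators Arntl and Npas2, the repressor Ciart and all 3 Per genes had higher means in the knockouts, and Nr1d1, Nr1d2, Dbp and Tef had lower means. The differences ran from -0.36 to 0.62 on the log2 scale, with standard errors of 0.18 to 0.34. The smallest adjusted p was 0.402, for Npas2. None of the 10 reached an unadjusted p of 0.05 either, where 12.7% of all probe sets did. Only for Nr1d2 did the 3 arrays of one group lie clear of the 3 of the other, a separation found for 18.1% of all probe sets. The median difference of the 10 genes was 0.34, beside -0.02 over all probe sets, and with 3 arrays per group differences of this size could not be told from the spread between animals. Nothing in the labels says whether the animals shared a litter or a day of collection.

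**Figure D1:**
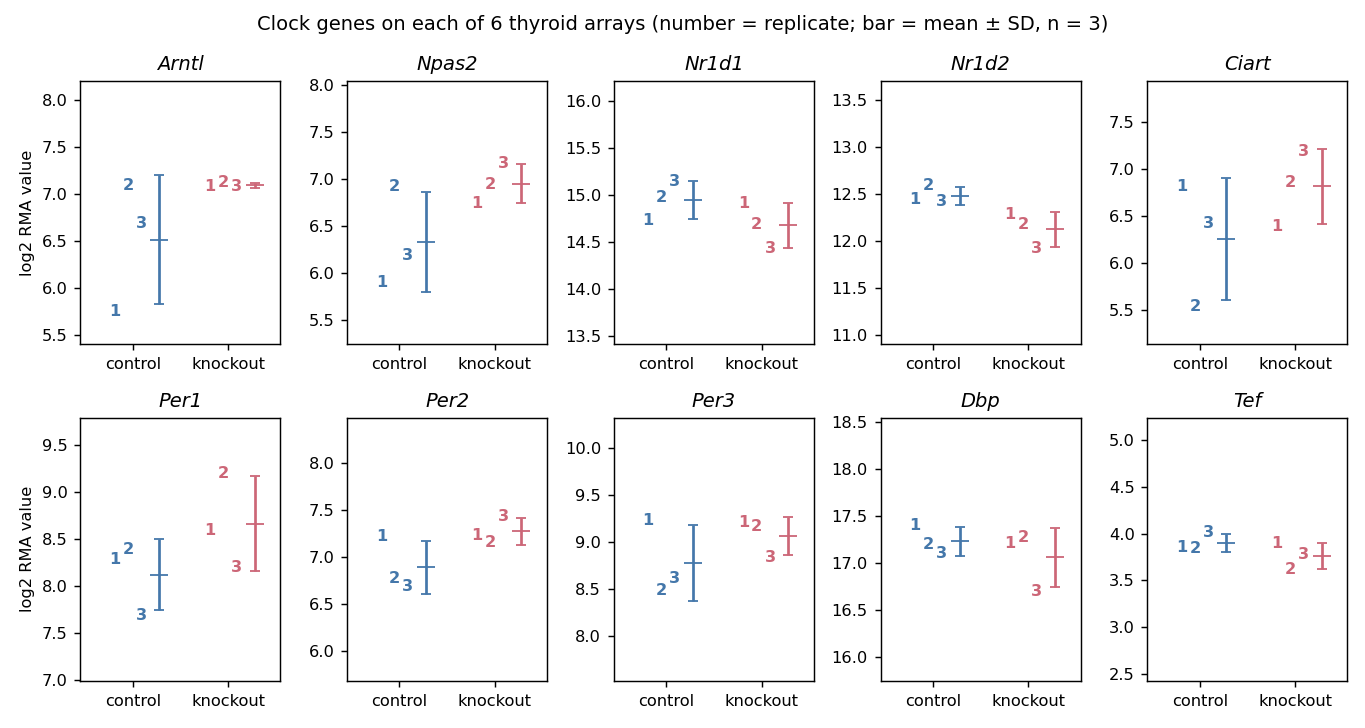
Log2 RMA value of each of the 10 clock genes (1 panel each, with the same span of log2 units in every panel) on the 3 control and 3 knockout arrays. Numbers are replicates, and the bar beside them is mean ± SD (n = 3). The groups overlap for every gene but Nr1d2, and Arntl and Npas2 are lowest in control 1.

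The labels were checked on Foxe1 itself, which was 7.28 ± 0.29 (log2, SD, n = 3) in the controls and 3.08 ± 0.23 in the knockouts and fell by 4.19 (limma adjusted p = 0.000442). Array medians lay between 5.62 and 5.69 (log2), and any pair of arrays correlated at 0.97 to 0.99 across probe sets. The mean log2 level of 9 measured follicular cell genes was 7.71 to 9.32 in controls and 9.93 to 10.37 in knockouts. The thyroglobulin gene Tg stood at 18.67 to 19.27 on the 6 arrays. Slc26a4 (2.37 to 3.12) and, in control 3, Slc5a5 (2.97) lay near the bottom of the scale. All 9 had positive differences, against 46.7% of all probe sets, and none passed the threshold. An unadjusted limma p under 0.05 was found for 5, against 12.7% of all probe sets. The groups did not overlap for 6 of the 9 (66.7%, against 18.1% of all probe sets). Skeletal muscle, airway and squamous transcripts were abundant in lobes of both groups. The list means of these and of macrophage genes did not overlap between the groups. Those of fibroblast, adipocyte, endothelial, parathyroid and C cell genes did. All 5 measured airway genes had negative differences with an unadjusted limma p under 0.05, and the groups did not overlap for 4. Of the 10 skeletal muscle genes, 3 had such a p and the groups did not overlap for 5. Of the 7 squamous genes, 2 had such a p and the groups did not overlap for 3. For the 6 measured macrophage genes these counts were 2 and 2. Skeletal muscle genes averaged 16.98 to 17.14 in controls and 15.74 to 16.77 in knockouts, airway genes 15.96 to 16.88 and 15.06 to 15.25, and squamous genes 16.05 to 16.22 and 16.26 to 16.86. Their part in the clock comparison was not tested. Parathyroid genes (3 measured) averaged 13.24 to 16.93 in controls and 5.95 to 14.77 in knockouts. None of the 79 genes measured in 12 lists of cell type markers and cell states passed the threshold. The clock values are therefore those of a mixed lobe, and in such bulk RNA fewer cells of a type and less RNA per cell cannot be told apart.

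Among the activators, Arntl, the obligate partner in the activating dimer, had control values of 5.76, 7.10 and 6.69 (log2) and knockout values of 7.08, 7.13 and 7.08. The 3 knockouts sat within 0.05 of each other, and control 2 lay among them, so the groups overlapped and the spread was that of the controls. The means were 6.52 ± 0.69 and 7.10 ± 0.03 (SD, n = 3 each), a difference of 0.58 (SE 0.32, 95% interval -0.14 to 1.30, limma adjusted p = 0.493). Without control 1, the lowest array, the difference was 0.20.

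Npas2, which can stand in for CLOCK as the partner of ARNTL, had control values of 5.89, 6.92 and 6.18 and knockout values of 6.74, 6.94 and 7.16. Control 1 was again the lowest array and control 2 again lay among the knockouts. The difference was 0.62 (SE 0.28, 95% interval -0.01 to 1.25, limma adjusted p = 0.402), and 0.40 without control 1. Taken as a ratio of knockout to control, the interval runs from 0.99 to 2.37.

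Control 1 was at an extreme for some of the 12 marker and state lists too, though knockout 3 was more often (lowest for 5 and highest for 2). Control 1 had the lowest mean in 2 cases, the immediate early genes (7.34, against 7.89 and 8.69 in the other controls and 8.19 to 8.79 in knockouts) and the glucocorticoid response genes (11.86, against 11.92 to 12.48 on the other arrays). It had the highest mean in 3, the adipocyte, airway and C cell lists, the last with 1 measured gene. The adipocyte list stood at 12.19 against 10.14 to 11.11 elsewhere. The part of these transcripts in the low Arntl and Npas2 values was not tested.

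The repressors fell into a pair of nuclear receptors with lower knockout means and a set with higher ones. Nr1d1, the main repressor of Arntl transcription, had control values of 14.73, 14.97 and 15.14 and knockout values of 14.91, 14.69 and 14.43. Knockout 3 was the lowest array, and the other knockouts lay in or just below the range of the controls. The difference was -0.27 (SE 0.21, 95% interval -0.74 to 0.20, limma adjusted p = 0.652), and -0.15 without knockout 3 or -0.17 without control 3.

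Nr1d2, its close relative, had control values of 12.44, 12.59 and 12.42 and knockout values of 12.28, 12.18 and 11.92. All knockouts lay below all controls, with 0.14 between the nearest arrays of the groups. The means were 12.48 ± 0.09 and 12.13 ± 0.19 (SD, n = 3 each), a difference of -0.36 (SE 0.18, 95% interval -0.77 to 0.06, limma adjusted p = 0.471). As a ratio of knockout to control, the interval runs from 0.58 to 1.04.

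Knockout 3 was the lowest array for Nr1d1, Nr1d2 and Dbp, and it was also the lowest for 5 of the 12 marker and state lists. Its 10 skeletal muscle genes averaged 15.74, against 16.62 and 16.77 in the other knockouts and 16.98 to 17.14 in controls, and all 10 had negative differences with none past the threshold (smallest p for the calcium release channel gene Ryr1, -1.31, limma adjusted p = 0.1). Its 7 measured fibroblast genes averaged 11.07, against 11.98 and 12.71 in the other knockouts and 12.03 to 13.07 in controls. All 7 had negative differences, with none past the threshold (smallest p for Pi16, -0.93, limma adjusted p = 0.358). The part of muscle and connective tissue in the Nr1d1, Nr1d2 and Dbp values was not tested.

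Ciart, a repressor of the ARNTL dimer whose promoter holds the 3 E-boxes printed above, had control values of 6.81, 5.54 and 6.42 and knockout values of 6.39, 6.86 and 7.19. It had the widest range of the 10 genes, 1.65 log2 units, from control 2 to knockout 3. The difference was 0.56 (SE 0.34, 95% interval -0.22 to 1.33, limma adjusted p = 0.552), and 0.20 without control 2, the lowest array. Its spread within groups was larger than that of 91.6% of all probe sets.

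The Per genes encode the repressors that close the loop. Per1, which also responds quickly to stimulation and glucocorticoid, had control values of 8.28, 8.38 and 7.68 and knockout values of 8.59, 9.19 and 8.19. Knockout 2 was high and control 3 low, and knockout 3 lay among the controls. The difference was 0.54 (SE 0.30, 95% interval -0.13 to 1.22, limma adjusted p = 0.496). It was 0.28 without knockout 2 and 0.33 without control 3.

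The other rapid responders were read beside Per1 because handling can move it. The 10 immediate early genes averaged 8.69 in control 3, where Per1 was lowest, and 8.68 in knockout 2, where Per1 was highest. Of the 10, 8 had positive differences, against 46.7% of all probe sets, and none passed the threshold. An unadjusted limma p under 0.05 was found for 4 of them, against 12.7% of all probe sets. The groups did not overlap for 3 (30.0%, against 18.1% of all probe sets). The smallest p was that of Junb, a subunit of the AP-1 factor, at 0.97 (SE 0.27, limma adjusted p = 0.178). Of the 10 glucocorticoid response genes, 6 had positive differences and none passed, with Cdkn1a, an inhibitor of the cell cycle, at 1.18 (SE 0.40, limma adjusted p = 0.264). The glucocorticoid list was highest in knockout 2 (12.48), as Per1 was, and lowest in control 1 (11.86), with 12.15 in control 3. The part of both lists in the Per1 values was not tested.

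Per2, a PER repressor needed for a stable rhythm, had control values of 7.22, 6.78 and 6.69 and knockout values of 7.23, 7.16 and 7.44. Control 1 lay among the knockouts, and the other controls lay below them. The difference was 0.38 (SE 0.21, 95% interval -0.09 to 0.85, limma adjusted p = 0.494). Per3, with its D-boxes, had control values of 9.23, 8.48 and 8.61 and knockout values of 9.20, 9.16 and 8.83. Control 1 was the highest array here and controls 2 and 3 the lowest. The difference was 0.29 (SE 0.24, 95% interval -0.26 to 0.84, limma adjusted p = 0.681). It was 0.14 without control 2 and 0.52 without control 1.

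The output factors showed small differences. Dbp, a direct ARNTL target, had control values of 17.40, 17.20 and 17.10 and knockout values of 17.21, 17.27 and 16.70. Its probe set stood above 99.3% of those on its array in every animal, where the scale may be compressed. The difference was -0.17 (SE 0.21, 95% interval -0.66 to 0.31, limma adjusted p = 0.802). Without knockout 3, the lowest array, it was 0.0067, so the sign rested on that animal.

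Tef had control values of 3.85, 3.84 and 4.01 and knockout values of 3.89, 3.62 and 3.78. Its probe set was brighter than 27.0% to 32.4% of those on its arrays, where signal and background are hard to part, and its spread within groups exceeded that of only 6.62% of probe sets. The difference was -0.14 (SE 0.18, 95% interval -0.54 to 0.27, limma adjusted p = 0.814).

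The rest of the clock pathway was read from 20 further measured genes. None of the 20 passed the threshold (0 higher and 0 lower), and 2, Bhlhe40 and Clock, had an unadjusted p under 0.05, a share below the 12.7% of all probe sets. Of the 20, 12 had positive differences, 7 negative and 1 (Cry1) a difference of 0.00, with a median of 0.10 beside -0.02 over all probe sets. The arrays of the groups did not overlap for 6 of the 20 (30.0%, against 18.1% of all probe sets), namely Clock, Bhlhe40, Arntl2, Fbxl21, Gsk3b and Timeless. The nearest arrays of the groups lay 0.19 apart for Bhlhe40, 0.11 for Clock and 0.07 for Arntl2 (log2). They lay 0.06 apart for Gsk3b, 0.04 for Fbxl21 and 0.01 for Timeless. Fbxl21 was brighter than only 23.9% to 29.6% of the probe sets on its arrays.

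**Figure D2:**
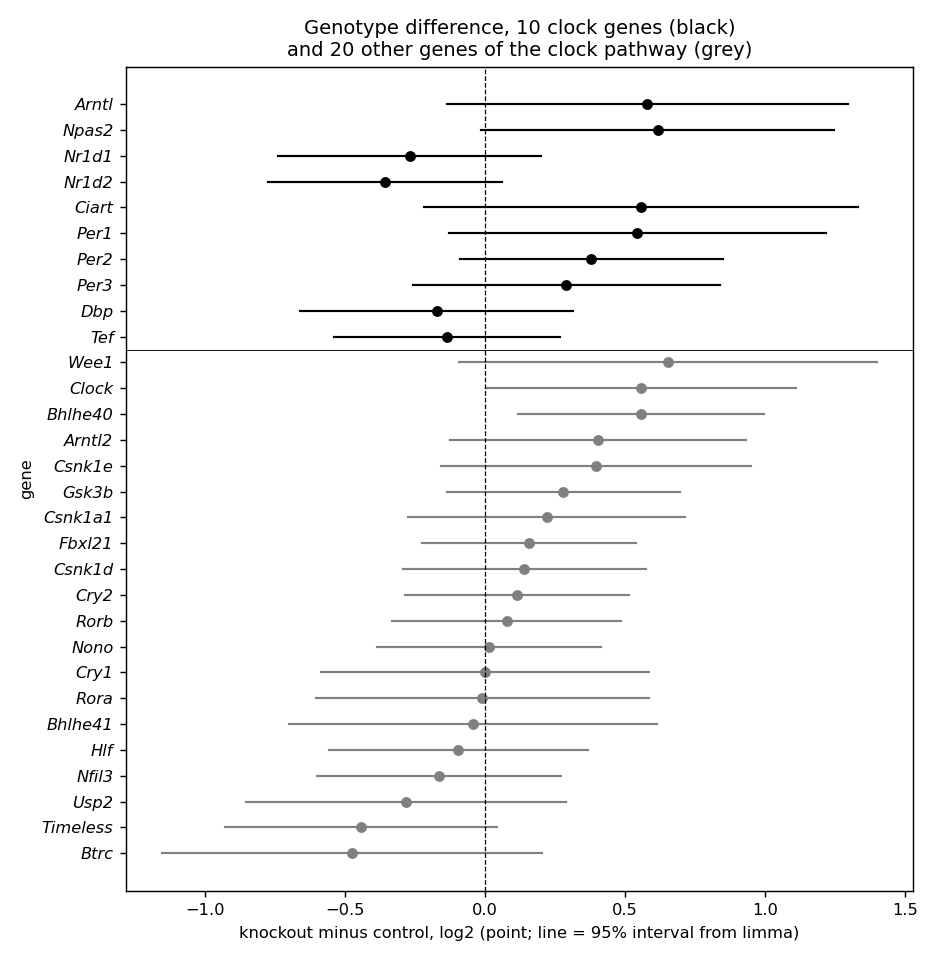
Knockout minus control difference (log2) with its 95% interval from limma for the 10 clock genes (black) and 20 other genes of the pathway (grey, ordered by difference), with a dashed line at 0. The intervals of all genes but Clock and Bhlhe40 cross 0, before any adjustment.

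Bhlhe40, a repressor that competes for E-boxes, had control values of 13.62, 13.69 and 13.88 and knockout values of 14.07, 14.28 and 14.51. The difference was 0.56 (SE 0.19, limma adjusted p = 0.27), and every knockout lay above every control. Clock, which encodes the usual partner of ARNTL, had control values of 13.41, 14.27 and 14.05 and knockout values of 14.58, 14.38 and 14.44. The difference was 0.56 (SE 0.24, limma adjusted p = 0.39). Its lowest array was control 1, as for Arntl and Npas2, and the difference was 0.31 without that array.

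Wee1, a cell cycle kinase driven through E-boxes, had control values of 9.52, 8.20 and 8.33 and knockout values of 9.36, 9.31 and 9.34. Controls 2 and 3 were thus the lowest arrays, and the difference was 0.65 (SE 0.33, limma adjusted p = 0.458). It was 0.41 without control 2 and 1.07 without control 1 (limma adjusted p = 0.102). Per3 likewise had control 2 and control 3 as its lowest arrays. Timeless, a replication fork protein, had a difference of -0.44 (adjusted p = 0.434), Arntl2, a paralog of Arntl, one of 0.40 (adjusted p = 0.523) and Csnk1e, a kinase that marks PER proteins for breakdown, one of 0.40 (adjusted p = 0.552). Arntl2 was at 0.18 without control 2, Csnk1e at 0.14 without control 1 and Timeless at -0.28 without knockout 1.

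The cryptochromes, which repress together with PER proteins, had knockout means close to their control means. Cry1 differed by 0.00 (95% interval -0.59 to 0.59) and Cry2 by 0.11 (95% interval -0.29 to 0.51). Rora, the activator that shares ROR response elements with the NR1D repressors, differed by -0.01 (95% interval -0.61 to 0.59) in its brightest of 3 probe sets. For Rora and Cry1 these intervals leave room for changes of over 0.5 log2 units in either direction.

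Antiphase pairs were described from each gene's deviation from its own mean over the 6 arrays, since levels of different probe sets cannot be compared. Each of the 2 activators was paired with each of the 8 repressor and output genes, which gives 16 pairs. All 16 are called antiphase pairs here, whatever the usual peak time of the other gene. In control 1 the activators stood 0.90 log2 units below their mean, with 6 of the 8 others above theirs, and 12 of the 16 pairs had opposite signs. In knockout 3 the activators stood 0.40 above their mean with 6 of the 8 others below theirs, and again 12 of 16 pairs were opposed. The counts were 8 in control 2, 6 in control 3, 4 in knockout 1 and 6 in knockout 2. Most pairs were thus opposed in 1 animal of each genotype, and no more than 8 of the 16 were in the other 4 animals. In knockout 1, 12 of the 16 pairs had the same sign. Summed over the 6 arrays, opposed pairs were no more common than same-sign pairs. Arntl and Npas2 shared their sign on every array, so each other gene counts in 2 pairs, and 12 of 16 pairs stand for 6 of 8 genes. Tef is among those 6 with deviations of only 0.02 in control 1 and -0.05 in knockout 3.

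**Figure D3:**
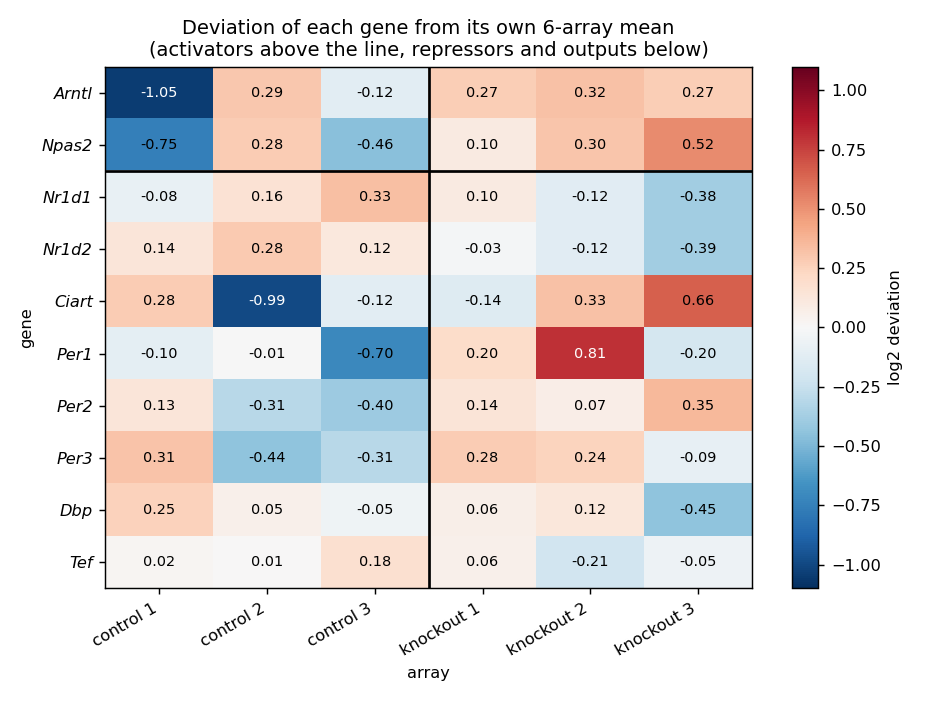
Deviation (log2) of each of the 10 genes from its own mean over the 6 arrays, with red above and blue below the mean. The upper block holds the activators and the lower block the repressors and outputs. Control 1 has low activators with 6 of the 8 others above their means, and Nr1d1 and Per1 below theirs. Knockout 3 has high activators with 6 of the 8 others below their means, and Ciart and Per2 above theirs.

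The members opposed to the activators were not the same in both animals. In control 1, Per3 (0.31), Ciart (0.28) and Dbp (0.25) stood above their means while Arntl deviated by -1.05 and Npas2 by -0.75. In knockout 3, Dbp (-0.45), Nr1d2 (-0.39) and Nr1d1 (-0.38) stood below theirs while Npas2 deviated by 0.52 and Arntl by 0.27. Ciart (0.66) and Per2 (0.35) stood above their means in knockout 3, on the same side as the activators. Nr1d2, Per3, Dbp and Tef lay on the side away from the activators in both animals, and Dbp deviated by 0.25 in control 1 and by -0.45 in knockout 3.

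The mean deviation of the 8 repressor and output genes minus that of the 2 activators, called the antiphase index here, put each array on 1 scale. The controls had values of 1.02, -0.44 and 0.17, and the knockouts had -0.10, -0.17 and -0.47, so that control 2 lay within the knockout range. In knockout 1 the activators (0.19) and the 8 others (0.085) both stood above their means, as in knockout 2 (0.31 and 0.14). In control 3 both stood below (-0.29 and -0.12). On these arrays the index gives the larger deviation of the activators and no opposition of sign. The means were 0.25 ± 0.73 and -0.25 ± 0.19 (SD, n = 3 each), and the difference was -0.49. Without control 1 it was -0.11, without control 2 it was -0.84, and these values are given with no test. The difference is smaller than the pooled spread of 0.54 between animals of a group.

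Over the 6 arrays, Arntl and Npas2 lay on the same side of their means on every array. Their Pearson r was 0.89 (exact permutation p = 0.0167, two-sided, n = 6) and Spearman rho 0.75 (exact permutation p = 0.0944). After adjustment over the 17 pairs examined, the exact permutation p for r was 0.283. Controls 1 and 3 lay farthest from the median of Arntl. Without them r was -0.03, but the Arntl values of the remaining 4 arrays span 0.05 log2 units, so whether the relation holds there could not be tested.

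Of the 16 antiphase pairs, 13 had a negative r, from -0.58 at the lowest to 0.46 at the highest. The lowest belonged to Npas2 and Dbp (r = -0.58, exact permutation p = 0.231; rho = -0.49, exact permutation p = 0.356; both two-sided, n = 6, adjusted p = 0.756 and 0.768), for which r was -0.82 without controls 1 and 3. Arntl and Dbp gave -0.48 (exact permutation p = 0.297; rho = -0.06, exact permutation p = 0.939). Arntl and Nr1d1, its repressor, gave -0.03 (exact permutation p = 0.956; rho = -0.23, exact permutation p = 0.667). The 3 positive pairs were Per1 with each activator (0.34 and 0.46) and Per2 with Npas2 (0.30). None of the 17 pairs passed after adjustment, and 1 had an unadjusted exact permutation p under 0.05, that of Arntl with Npas2.

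The count of negative pairs depended on control 1. Without it 7 of the 16 were negative, against 10 to 13 without any other single array. With the group means removed from both genes, 11 of 16 were negative, as a description with no p. Values with Arntl then ran from -0.87 (Per3) to 0.49 (Nr1d1), with Nr1d2 at 0.30, and those with Npas2 from -0.83 (Per3) to 0.08 (Per1). The 8 repressor and output genes, averaged as 1 phase in the antiphase index, did not vary as 1 block. Of the 28 pairs among them, examined after the values were seen, 15 had a negative r. Nr1d1 and Per2 gave the lowest (r = -0.89, exact permutation p = 0.0167; rho = -0.77, exact permutation p = 0.103; n = 6, two-sided, adjusted p = 0.378 and 0.635 over the 28), with r at -0.63 without the 2 arrays farthest from the median of Nr1d1. Per1 and Tef gave -0.86 (exact permutation p = 0.0597; rho = -0.49, exact permutation p = 0.356) and Nr1d2 and Ciart -0.82 (exact permutation p = 0.0528; rho = -0.77, exact permutation p = 0.103). Nr1d1 and Nr1d2, the paired receptors, gave 0.79 (exact permutation p = 0.0653; rho = 0.71, exact permutation p = 0.136). None of the 28 passed after adjustment, and 1 had an unadjusted exact permutation p under 0.05. All pairs share the same 6 lobes and the 16 share the 2 activators, so the counts are not independent.

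**Figure D4:**
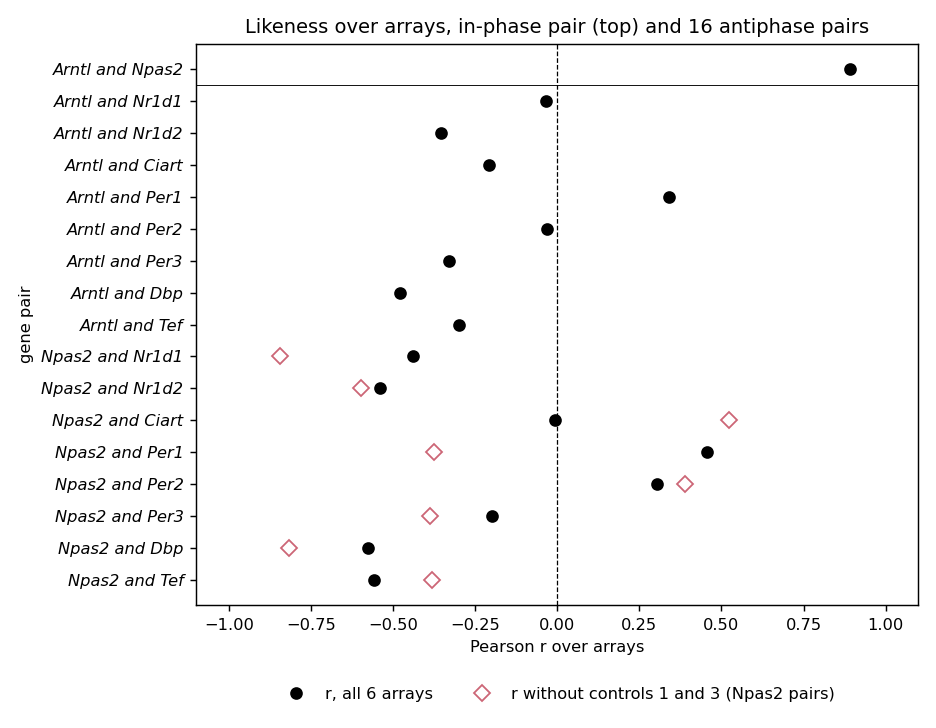
Pearson r over the 6 arrays for the in-phase pair of Arntl and Npas2 (top) and for the 16 antiphase pairs (black circles). Open diamonds give r without controls 1 and 3, the arrays farthest from the median of Npas2, for the pairs of Npas2 (n = 4). The in-phase pair stands at 0.89 and the antiphase pairs between -0.58 and 0.46.

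The 10 genes differed widely in their spread within groups. Ciart, Arntl and Per1 had SDs within groups of 0.54, 0.49 and 0.45 log2 units, larger than those of 91.6%, 87.8% and 83.5% of all probe sets. Nr1d2 (0.15) and Tef (0.12) had small ones. The median of the 10, 0.28, was the same to 2 decimals as that of all probe sets. Knockouts varied by an SD of 0.03 for Arntl where controls varied by 0.69, and that difference in spread was not tested.

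Genes whose pattern over the 6 arrays was most like Arntl were Cyp27a1, a sterol hydroxylase of mitochondria (r = 0.99), the cornified envelope genes Lce1g (0.99) and Lce1j (0.98), the calcium channel subunit gene Cacna2d4 (0.99) and Tmigd1 (0.98). They were taken from 2795 named probe sets with an SD of at least 0.5, of which 123 had an r above 0.9, so the genes named are not alone. Arntl deviated by -1.05 in control 1 and by -0.12 to 0.32 on the other arrays, so such an r rests largely on control 1. Most like Dbp were the non-coding RNA Lncpint (0.99), Stard8 (0.99), Zfp160 (0.96), Sdccag8 (0.96) and Tceanc (0.95), with 42 of 2796 above 0.9.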

How the data were processed

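For each of 6 arrays the authors deposited a log2 value per probe set. Per the submitters' processing notes, Affymetrix Expression Console and its RMA method produced them; the sources used here give no settings, version or build. RMA ordinarily equalises array distributions, which removes a change shared by most transcripts. Per the labels' protocols, 250 ng of RNA with an integrity number of at least 7 was used. Probe sets were named through the platform table of 2019 and gene identifiers (RefSeq, GRCm38.p6): 19572 had 1 symbol, 2634 none and 0 several. The brightest probe set stood for a gene.

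Differences are knockout minus control, tested over all 22206 probe sets with limma 3.58.1 in R 4.3.3 (lmFit, eBayes, two-sided, Benjamini-Hochberg, threshold 0.05), a step tested on simulated data. Correlations used all 720 orders of the arrays. Figures used matplotlib 3.10.9. No detection calls, scan dates or batches were at hand, and the number of arrays limits precision.

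The members and lists were chosen with earlier results of these data known. Named were all members, the 6 other clock genes with the smallest p (Cry1, Cry2, Rora and genes without overlap were added after their values were seen), the gene of smallest p in a list described, Foxe1, and the 5 genes most like Arntl and Dbp. The other settings tried are in the closing section.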

Additional observations from a re-analysis of the deposited data

How the results depend on the processing

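None of the 10 clock genes and none of the 20 other clock genes passed an adjusted p of 0.05 in any of the 11 other fits that tested them (quantile normalization again, median centring, array weights, a variance trend, that trend with robust fitting, the replicate block, 2 filters on low signal, probe sets with a symbol, an ordinary t statistic, averaged probe sets per gene) or without any single array. At an unadjusted p of 0.05, 2 of the 20 passed. For the 10 genes and the 6 others with the smallest p, direction held in all these fits but 1, Dbp without knockout 3 (0.0067, with -0.28 at the other end, without knockout 2). Tef, Arntl2 and Timeless have no value without probe sets below the median. The count over all probe sets, 75, was 118 with a variance trend and robust fitting, 0 with an ordinary t statistic (2208 at an unadjusted p under 0.05), 260 at an adjusted p of 0.1 and 2828 at an unadjusted p of 0.05, and lay between 2 and 43 without 1 array. With the replicate number as a block it was 63. Deviations from the group mean correlated at -0.01, 0.08 and 0.02 for same-numbered arrays and at -0.08 to 0.06 for the others. Deviations from a mean of 3 arrays cancel within a group, so these values cannot show whether the arrays were paired. The antiphase index difference, -0.49, lay between -0.84 and -0.11 without 1 array and between -0.61 and -0.46 under the other settings, of which leaving out Tef (-0.46) and leaving out Per1 and Per2 (-0.61) were chosen after seeing the data, as were the removal of group means from the correlations and the 28 pairs of repressor and output genes. No pair passed after adjustment with renewed quantile normalization or median centring. Low signal limits Tef and Fbxl21, and 3 arrays per group limit all differences.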
